A study of Mus musculus with 7 samples.

Results

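The genes described here encode laminin chains, nidogens, perlecan, fibronectin, elastic fibre proteins, matrix proteoglycans, matricellular glycoproteins and lysyl oxidases. They were taken by symbol from a fixed list, which gave 38 of the 57010 genes in the count table, 13 of them basement membrane genes and 25 of them interstitial matrix genes. Their transcripts were counted by RNA-Seq in mature white adipocytes, which had been freed with collagenase from the perigonadal fat of male mice kept on standard chow and, per the labels, 20 weeks old. The 4 Adipoq-F2-KO samples came from mice with floxed alleles of Ffar2, the gene of the short-chain fatty acid receptor FFA2, together with a Cre transgene driven by the adiponectin promoter. The 3 FFA2 fl/fl samples came from mice with the same floxed alleles but without the transgene, which were littermates housed with the knockouts, so that both groups shared the floxed locus and no group had Cre alone. Adiponectin-Cre acts in cells that express adiponectin, so other cells that stay with the floating adipocytes keep an intact gene.

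Each adipocyte in white fat is wrapped in a basement membrane. This thin sheet is made of laminin trimers and a type IV collagen network, and nidogens and the proteoglycan perlecan link the laminin and collagen layers. Outside the sheet lies the interstitial matrix, in which fibronectin, fibrillin, fibulins and elastin form fibres and small proteoglycans bind collagen fibrils. Matricellular glycoproteins signal to cells more than they bear load, and lysyl oxidases crosslink collagen and elastin. Vessel walls, fibroblasts and adipocytes can all contribute transcripts of both kinds, and the matrix of white fat is remodelled when the tissue expands or becomes inflamed.

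The listed basement membrane genes as a group sat at the control level in Adipoq-F2-KO adipocytes. Most of the listed interstitial matrix genes had higher values than in FFA2 fl/fl adipocytes. The median log2 fold change (Adipoq-F2-KO over FFA2 fl/fl) was 0.0010 over the 13 basement membrane genes, 7 of them positive, and 0.33 over the 23 interstitial genes that could be tested, 19 of them positive. Over all 17039 genes tested the median was 0.0037. Only Tnc and Bgn, 2 of the 36 genes tested, rose at an adjusted p under 0.05 in edgeR's quasi-likelihood test with Benjamini-Hochberg adjustment over all genes, and none fell; 1.02% of all genes tested passed the same threshold, 0.798% upward and 0.217% downward. The difference between the compartments was described and not tested, since genes of the same libraries are not independent. It also depended on which genes were listed. Other matrix genes, described below, had medians of 0.19 (19 basement membrane genes), -0.0041 (14 elastic fibre genes) and -0.03 (20 genes of collagen modification). Other small proteoglycans and hyalectans (7 tested) and other matricellular genes (12 tested) had medians of 0.40 and 0.36. In such bulk RNA, fewer cells of a type and less RNA per cell cannot be told apart.

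**Figure D1:**
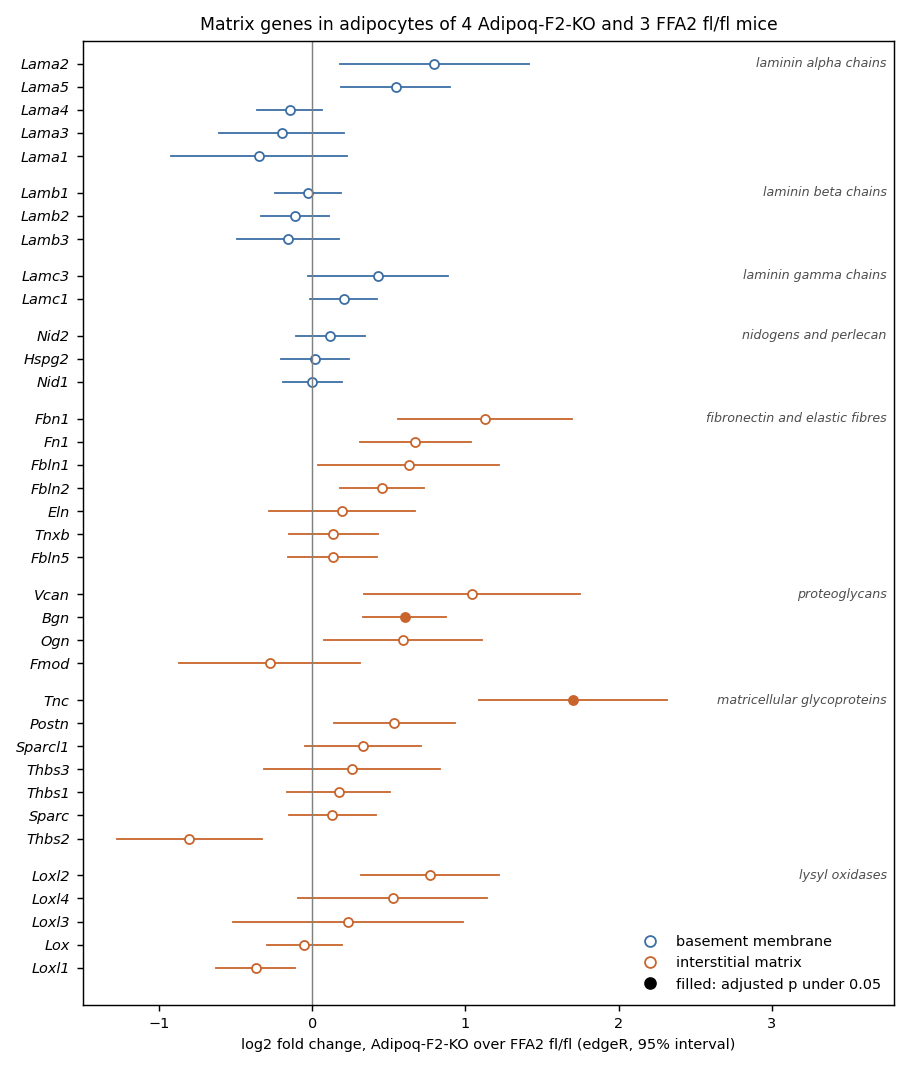
Log2 fold change of each of the 36 tested matrix genes (x axis, Adipoq-F2-KO over FFA2 fl/fl, edgeR), with rows for genes grouped by role, points for the estimate and bars for its 95% interval. Filled points mark Tnc and Bgn, and the intervals of the 7 most abundant basement membrane genes all lie between -0.36 and 0.42.

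The libraries held 30478997 to 39992605 counts and their totals showed no detectable difference by genotype (p = 0.486, two-sided exact permutation of 3 against 4 libraries, which cannot give less than 0.0286). Ffar2 was read at 34.5 ± 2.77 (CPM, library-size-scaled counts with TMM factors; SD, n = 3) in FFA2 fl/fl and at 1.69 ± 0.634 CPM (SD, n = 4) in Adipoq-F2-KO adipocytes, and each of the 7 libraries lay on the side its label gives. The adipocyte markers Adipoq, Plin1 and Lep were abundant in all libraries, and 14 of 15 adipocyte markers had negative log2 fold changes (median -0.24), with summed levels of 72296 to 79327 CPM in controls and 59129 to 73381 CPM in knockouts. Markers of other cells were also read. All 12 endothelial markers (Pecam1, Cdh5 and Kdr among them) had positive log2 fold changes, with sums of 1264 to 1647 against 1739 to 2809 CPM. Mural cell markers such as Rgs5, Pdgfrb and Cspg4 summed to 735 to 863 against 877 to 1556 CPM, with 8 of 11 positive. Macrophage markers such as Adgre1, Cd68 and Csf1r summed to 455 to 519 against 584 to 672 CPM, with 13 of 16 positive, and Cd68 and Lyz2 (named after its value was seen) rose at an adjusted p under 0.05. Of 14 fibroblast progenitor markers such as Pdgfra, 11 were positive (median 0.30), although their sum, dominated by the most abundant marker, was 15426 to 16555 against 11247 to 14834 CPM. None of these 5 lists had a marker at 0 in all libraries. The highest endothelial, mural and macrophage sums and the lowest adipocyte sum all belonged to Adipoq-F2-KO replicate 4, and the part of these cells in the results that follow was not tested. Transcripts of the mitochondrial chromosome took 4.41% to 5.77% of the counts in controls and 6.61% to 10.3% in knockouts, without overlap, with the highest share in knockout replicate 4. All 17 tested mitochondrial genes had positive log2 fold changes, and 3 of them (mt-Nd1, mt-Nd2 and mt-Tp, named after their values were seen) rose at an adjusted p under 0.05 in edgeR. The gene ENSMUSG00000119584 took 0.619% to 3.13% of the counts in controls and 0.882% to 6.76% in knockouts, again highest in replicate 4. The part of both in the results was not tested.

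Low-level lists gave sums of 12.8 to 59.1 against 12.2 to 15.6 CPM for mesothelial, 2.14 to 23.2 against 2.63 to 13.9 for lymphocyte and 8.12 to 10.3 against 12.3 to 14.9 for neutrophil markers, of which Ly6g was at 0. Epididymis and germ cell markers summed to 0 to 2.49 CPM in controls, and to 110 in Adipoq-F2-KO replicate 2 and 24.8 in replicate 3, with Lcn5, Defb30 and Spag11a at 0 in all libraries. Genes induced by tissue dissociation, such as Fos, Fosb and Jun, had a median log2 fold change of 0.0036.

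Laminins are heterotrimers of an alpha, a beta and a gamma chain, and the alpha chain sets which cell receptors bind. The predominant set was Lama4, Lamb2 with Lamb1, and Lamc1 in every library of either genotype. Lama4, the alpha chain typical of vessels, fat and muscle, was read at 444, 512 and 456 CPM in FFA2 fl/fl replicates 1 to 3 and at 407, 475, 398 and 419 CPM in Adipoq-F2-KO replicates 1 to 4. The ranges overlapped, and the log2 fold change was -0.15 (95% interval -0.36 to 0.06, adjusted p = 0.457 in edgeR). Lamb2 was read at 317, 351 and 375 CPM in controls and at 362, 310, 322 and 293 CPM in knockouts, again with overlap (log2 fold change -0.11, interval -0.33 to 0.11). Lamc1, the gamma chain shared by most laminins, was read at 366, 399 and 414 CPM against 459, 483, 392 and 477 CPM. Only knockout replicate 3 fell within the control range for Lamc1, and its log2 fold change of 0.20 had an interval of -0.01 to 0.42. Lamb1 had a log2 fold change of -0.03 and Lamb3 of -0.16, while Lamc3, a gamma chain of low level, stood at 12.6 ± 1.83 against 17.0 ± 5.12 CPM (SD, n = 3 and 4). Its log2 fold change of 0.43 was 0.21 without knockout replicate 4, which was at 24.4 CPM.

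Lama5 and Lama2 were the 2 basement membrane genes with an unadjusted p under 0.05, against 17.9% of all tested genes that passed this looser threshold in either direction; 2 of 13 is 15.4%, close to that share. Lama5, the alpha chain of most mature epithelial and vascular basement membranes, was read at 65.1, 85.7 and 78.7 CPM in controls and at 111, 92.5, 94.8 and 148 CPM in knockouts. All knockout values lay above all control values, with a log2 fold change of 0.54 ± 0.16 (SE) and an adjusted p of 0.124 in edgeR and 0.0236 in DESeq2. Lama2, the alpha chain of muscle and nerve basement membranes, was read at 24.5, 28.1 and 29.5 CPM against 43.9, 48.4, 23.9 and 74.1 CPM. Knockout replicate 3 was below every control for Lama2 and replicate 4 was far above the rest, and the log2 fold change was 0.80 ± 0.28 (SE, adjusted p = 0.178 in edgeR). Without knockout replicate 4 it was 0.50, more than 1.5 times smaller, and for Lama5 0.38. Lama1, the alpha chain of embryonic basement membranes, and Lama3, the epithelial alpha chain, were at 3.41 to 7.05 and 7.15 to 11.5 CPM over all libraries, with log2 fold changes of -0.35 and -0.20.

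Expressed per kilobase of the summed exon length in the table, Lama4 made up 80.6%, 80.0% and 79.2% of the 5 alpha chains in FFA2 fl/fl adipocytes and 71.5%, 76.5%, 75.2% and 64.7% in Adipoq-F2-KO adipocytes. The share of Lama5 was 12.5%, 14.2% and 14.5% in controls and 20.7%, 15.8%, 18.97% and 24.2% in knockouts. The Lama4 share was thus lower, and the Lama5 share higher, in all knockout libraries than in all control libraries, and knockout replicate 4 was the extreme of both. Shares of a family sum to a fixed total, so these are not separate results, and they were given no test. Lamc1 held 93.5% to 96.2% of the 2 gamma chains in all 7 libraries.

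**Figure D2:**
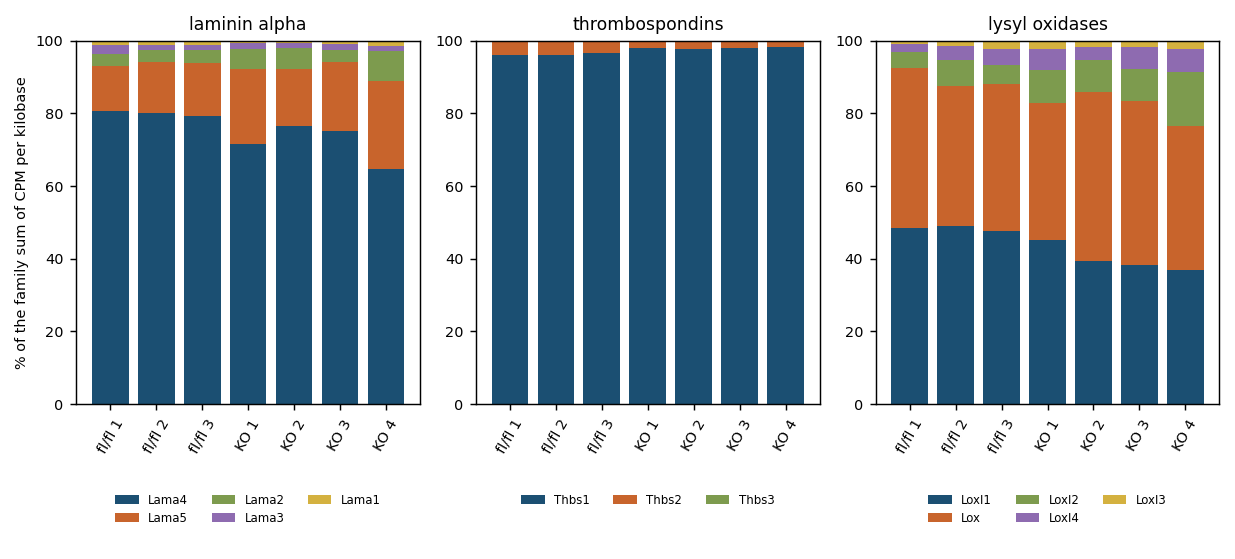
Share of each family member in the family's summed CPM per kilobase (y axis, percent) in each library (x axis; fl/fl, FFA2 fl/fl; KO, Adipoq-F2-KO) for laminin alpha chains, thrombospondins and lysyl oxidases. Lama4 is at 79.2% or more in the control libraries and 76.5% or less in the knockout libraries, and Loxl1 at 47.5% or more and 45.2% or less.

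The nidogens and perlecan, which tie laminin to collagen IV, gave the closest agreement between genotypes. Nid1 was read at 1145, 1127 and 1170 CPM in controls and at 1203, 1208, 1130 and 1051 CPM in knockouts. The log2 fold change was 0.0010 with an interval of -0.19 to 0.20. Hspg2, which encodes perlecan, was at 1646 ± 29.7 against 1664 ± 183 CPM (SD, n = 3 and 4), with a log2 fold change of 0.02 and an interval of -0.21 to 0.24. Nid2 had a log2 fold change of 0.12 and an interval of -0.11 to 0.34. It shares 437 exonic bases with the antisense gene Rtraf, which had 16182 counts over all libraries against 43819 for Nid2. The nidogens and perlecan, together with Lama4, Lamb1, Lamb2 and Lamc1, made 7 basement membrane genes over 100 CPM in both genotypes, a level chosen after the values were seen. Their log2 fold changes ran from -0.15 to 0.20, and their 95% intervals left room for differences down to -0.36 and up to 0.42. Each interval included 0, so a difference inside it could not be told from none with these libraries. The bounds are not a limit of detection, since a larger difference could also miss the adjusted threshold.

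All 7 tested genes of the fibronectin and elastic fibre group had positive log2 fold changes (median 0.46), and 4 of them had an unadjusted p under 0.05, which 10.5% of all tested genes passed in the upward direction. Fn1, fibronectin, on which cells assemble other fibres, was read at 122, 137 and 166 CPM in controls and at 196, 268, 174 and 266 CPM in knockouts. Every knockout value lay above every control value, and the log2 fold change was 0.67 ± 0.16 (SE), with an adjusted p of 0.0757 in edgeR and 0.0020 in DESeq2. Fbn1, fibrillin-1, the core of microfibrils, was read at 21.3, 34.2 and 40.7 CPM against 67.4, 80.3, 41.9 and 90.5 CPM. Knockout replicate 3 only just passed the highest control for Fbn1, while the other knockout libraries were well above it, and the log2 fold change was 1.13 ± 0.26 (SE, adjusted p = 0.0626 in edgeR and 0.0386 in DESeq2). Fbln2, fibulin-2, which binds fibronectin, fibrillin and basement membrane proteins, was read at 85.8, 109 and 97.2 CPM against 131, 125, 117 and 162 CPM. The groups did not overlap for Fbln2 either, with a log2 fold change of 0.46 ± 0.13 (SE, adjusted p = 0.104 in edgeR and 0.0181 in DESeq2).

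Fbln1, fibulin-1, was read at 6.36, 5.65 and 6.44 CPM in controls and at 7.83, 10.5, 5.59 and 14.2 CPM in knockouts. Replicate 3 of the knockouts was the lowest of all 7 libraries, and the log2 fold change of 0.63 ± 0.27 (SE, adjusted p = 0.254 in edgeR) was 0.37 without knockout replicate 4. Eln, the elastin gene, ranged from 32.5 to 61.3 CPM in controls and from 43.4 to 75.3 CPM in knockouts, with a log2 fold change of 0.20 and an interval of -0.28 to 0.67. Fbln5, needed for elastic fibre assembly, and Tnxb, tenascin-X, which associates with collagen fibrils, had log2 fold changes of 0.13 and 0.14. Fbn2, fibrillin-2, was not tested, having 2 counts in FFA2 fl/fl replicate 2 and none elsewhere. In the other 6 libraries a count of 0 allowed up to 0.151 to 0.204 CPM (3 fragments, or 6 counts, on the same TMM scale; this limit covers counting error only).

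Bgn, Vcan and Ogn, 3 of the 4 proteoglycan genes, had positive log2 fold changes of 0.59 to 1.04 and unadjusted p under 0.05. Bgn (ENSMUSG00000031375, chromosome X, 72527208 to 72539539 in the coordinates of the deposited table) encodes biglycan, a small leucine-rich proteoglycan that binds collagen and can be shed as an inflammatory signal. It was read at 124, 158 and 165 CPM in FFA2 fl/fl replicates 1 to 3 and at 209, 217, 215 and 265 CPM in Adipoq-F2-KO replicates 1 to 4. All knockout libraries lay above all control libraries, and 3 of them lay close together below the fourth. The means were 149 ± 21.96 and 227 ± 26.1 CPM (SD, n = 3 and 4), a fitted rise of 1.52-fold (log2 fold change 0.60 ± 0.12 SE, adjusted p = 0.0479 in edgeR and 0.00029 in DESeq2). The edgeR call was close to its threshold and was lost when any 1 of the 7 libraries was left out, with adjusted p from 0.0520 without knockout replicate 4 to 0.241 without control replicate 1 and log2 fold changes from 0.49 to 0.70.

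Vcan, versican, a large hyaluronan-binding proteoglycan of loose matrix, was read at 5.82, 5.34 and 7.09 CPM in controls and at 11.6, 15.0, 5.53 and 18.04 CPM in knockouts. Replicate 3 of the knockouts lay within the control range and the others were at least 11.6 CPM, and the log2 fold change was 1.04 ± 0.32 (SE, adjusted p = 0.133 in edgeR and 0.0274 in DESeq2). Ogn, osteoglycin, was read at 22.7, 31.9 and 44.7 CPM against 40.6, 59.1, 36.9 and 62.7 CPM, with overlap between the groups (log2 fold change 0.59 ± 0.24 SE, adjusted p = 0.223 in edgeR, and 0.38 without control replicate 1). Fmod, fibromodulin, a regulator of collagen fibril width, was the exception in sign at -0.28, and its highest library, at 11.2 CPM, was control replicate 3.

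Tnc gave the largest log2 fold change of the 36 genes tested. Tnc (ENSMUSG00000028364, chromosome 4, 63878022 to 63965252 in the table's coordinates) encodes tenascin-C, a hexameric glycoprotein that is scarce in resting adult tissue and is made at sites of injury and inflammation. It was read at 29.6, 34.5 and 36.3 CPM in FFA2 fl/fl replicates 1 to 3 and at 73.4, 81.9, 95.2 and 185 CPM in Adipoq-F2-KO replicates 1 to 4. The lowest knockout library was above the highest control library, and knockout replicate 4 stood well above the others. The means were 33.5 ± 3.48 and 109 ± 51.6 CPM (SD, n = 3 and 4), a fitted rise of 3.25-fold (log2 fold change 1.70 ± 0.28 SE, 95% interval 1.09 to 2.31, adjusted p = 0.0332 in edgeR and 0.00066 in DESeq2). Without knockout replicate 4 the log2 fold change was 1.32 and the adjusted p in edgeR 0.00255. The call also held without knockout replicate 1 (adjusted p = 0.0181) and was lost without control replicate 1 (0.196), 2 (0.0627) or 3 (0.132) and without knockout replicate 2 (0.0557) or 3 (0.0546), although the log2 fold change stayed at 1.62 to 1.82 in those fits. Set against perlecan in the same library, Tnc per kilobase was 0.0347, 0.0390 and 0.0419 of Hspg2 in controls and 0.0722, 0.0972, 0.120 and 0.217 of it in knockouts. An antisense transcript overlaps 176 exonic bases of Tnc but had 236 counts over all libraries against 18234 for Tnc.

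The 250 bases upstream of the annotated starts of the called genes are shown because only these members passed the adjusted threshold. The sequences are from RefSeq on GRCm38.p6 (Tnc, chr4:64046937-64047186, minus strand, 1 of 2 windows listed; Bgn, chrX:73483351-73483600, plus strand), read 5′ to 3′ with the last base next to the start, and capitals mark TATAA and GGGCGG found on either strand.
Tnc: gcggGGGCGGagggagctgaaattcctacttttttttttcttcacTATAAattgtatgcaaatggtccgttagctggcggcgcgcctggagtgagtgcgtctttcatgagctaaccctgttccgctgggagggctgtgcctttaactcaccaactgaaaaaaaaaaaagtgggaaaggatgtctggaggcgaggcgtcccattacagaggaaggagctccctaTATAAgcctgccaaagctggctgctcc
Bgn: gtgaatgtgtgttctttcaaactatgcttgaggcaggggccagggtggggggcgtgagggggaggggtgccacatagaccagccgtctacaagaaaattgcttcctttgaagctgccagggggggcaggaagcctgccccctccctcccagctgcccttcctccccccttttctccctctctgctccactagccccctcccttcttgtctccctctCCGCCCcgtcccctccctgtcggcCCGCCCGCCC
In Tnc, TATAA stood at bases -27 to -23 and -205 to -201 and GGGCGG at -246 to -241, counted back from the start. In Bgn no TATAA was found in this window, and GGGCGG stood at -34 to -29, -10 to -5 and -6 to -1, the latter pair overlapping. Of the 38 genes 23 had a window in the table. A gene with several windows was counted if any of them matched, whereas the percent of all is of single windows. The member counts are therefore not like for like with those percents, and extra windows can raise them. TATAA was in 6 of these 23 and in 22.8% of all 32851 windows, and GGGCGG was in 14 of 23 and in 32.7% of all. The letters TGANTCA were in 1 of 23, Tnxb, and in 6.7% of all, and a kappaB-type motif was in 9 of 23 and in 17.6% of all. Neither was found in the Tnc or Bgn window. A match of letters is not a bound site.

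**Figure D3:**
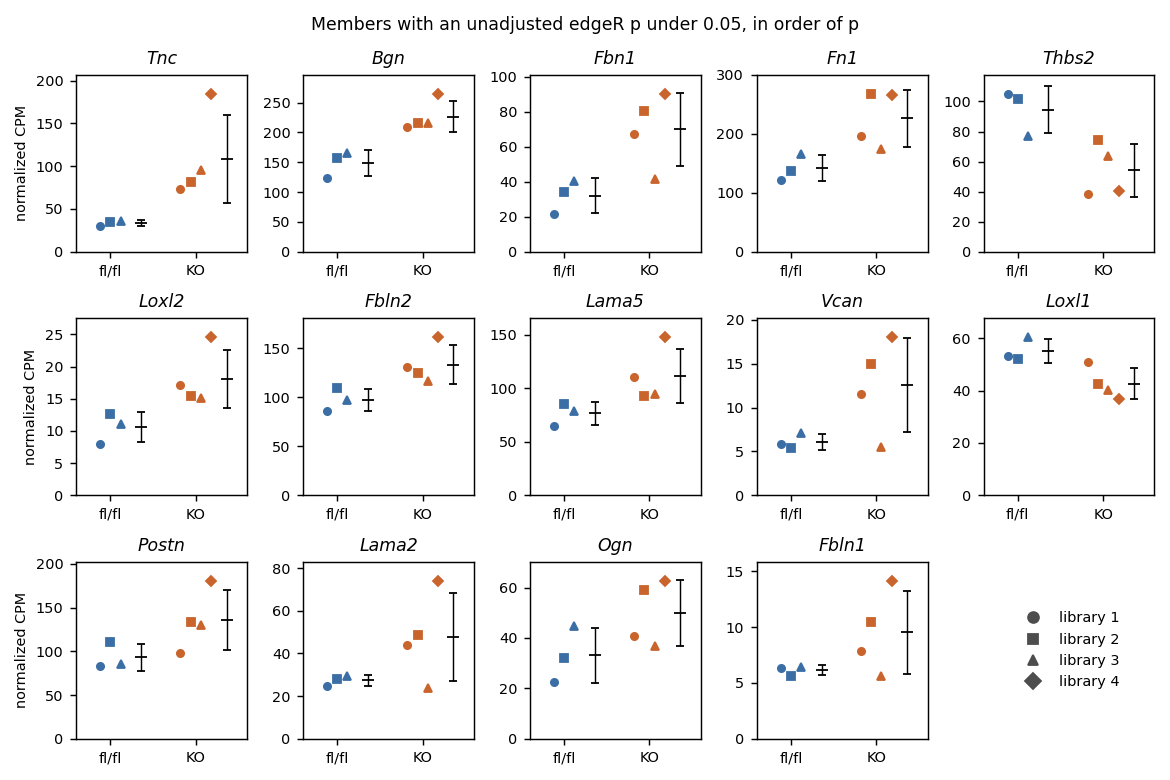
Level (y axis, TMM-scaled CPM, linear from 0) of the 14 members with an unadjusted p under 0.05 in each FFA2 fl/fl (fl/fl) and Adipoq-F2-KO (KO) library (x axis), 1 panel a gene; the marker shape gives the replicate number within a genotype, and bars give mean ± SD. All 4 Adipoq-F2-KO points lie above all 3 FFA2 fl/fl points for Tnc (73.4 CPM or more against 36.3 CPM or less) and Bgn (209 CPM or more against 165 CPM or less).

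The other matricellular genes had log2 fold changes of both signs. Thbs2, thrombospondin-2, an inhibitor of vessel growth, was the only matricellular gene with a negative log2 fold change, and was read at 105, 102 and 76.9 CPM in controls and at 38.4, 74.5, 63.7 and 40.2 CPM in knockouts. All knockout values lay below all control values, though replicate 2 of the knockouts came close to control replicate 3, and the log2 fold change was -0.80 ± 0.22 (SE, adjusted p = 0.0983 in edgeR and 0.0060 in DESeq2). Its paralogue Thbs1, far more abundant, was at 2197 ± 247 against 2477 ± 494 CPM (SD, n = 3 and 4), with a log2 fold change of 0.17 and an interval of -0.16 to 0.51. Per kilobase, Thbs2 was 3.59%, 3.86% and 3.29% of the thrombospondin sum in controls and 1.79%, 2.14%, 1.97% and 1.44% in knockouts. The control and knockout shares did not overlap. Thbs3 had a log2 fold change of 0.26, but overlaps Mtx1 over 318 exonic bases, and Mtx1 had 4020 counts over all libraries against 1024 for Thbs3; there reads cannot be assigned without knowing the strand setting. Thbs4 had no count in any library.

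Postn, periostin, a collagen-binding protein of remodelling tissue, was read at 83.5, 111 and 85.4 CPM in controls and at 98.0, 133, 130 and 181 CPM in knockouts. Knockout replicate 1 lay inside the control range, and the log2 fold change was 0.54 ± 0.18 (SE, adjusted p = 0.162 in edgeR and 0.0451 in DESeq2). Sparc, which binds collagen and shapes basement membranes, was read at 3114, 3387 and 3310 CPM against 3957, 3445, 4107 and 2799 CPM. Its lowest and highest libraries were both knockouts, and its log2 fold change was 0.13 with an interval of -0.15 to 0.41. Sparcl1, a Sparc relative common in vessel walls, stood at 0.33, and at 0.13 without knockout replicate 4, whose 527 CPM compared with 283 to 364 CPM in all other libraries.

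Among the lysyl oxidases, which oxidise lysines of collagen and elastin to start crosslinks, Loxl2 and Loxl1 had log2 fold changes of opposite sign. Loxl2, which acts on collagen IV, was read at 8.01, 12.7 and 11.1 CPM in controls and at 17.1, 15.5, 15.0 and 24.6 CPM in knockouts. All knockout values exceeded all control values (log2 fold change 0.77 ± 0.21 SE, adjusted p = 0.0986 in edgeR and 0.0186 in DESeq2). Loxl1, which acts in elastic fibre upkeep, was read at 53.1, 52.2 and 60.5 CPM in controls and at 50.9, 42.6, 40.4 and 37.0 CPM in knockouts. All knockout values were below all control values, by a narrow margin for knockout replicate 1 (log2 fold change -0.37 ± 0.12 SE, adjusted p = 0.143 in edgeR and 0.0926 in DESeq2). Neither Loxl2 nor Loxl1 passed the adjusted threshold in edgeR.

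Per kilobase, Loxl2 was 0.0921, 0.148 and 0.112 of Loxl1 in controls and 0.205, 0.222, 0.227 and 0.406 of it in knockouts. The ratio did not overlap between the genotypes, but it was formed after both values were seen and was not tested. Lox, the founding member, was at 67.9 ± 7.54 against 65.4 ± 7.10 CPM (SD, n = 3 and 4), a log2 fold change of -0.05 with an interval of -0.30 to 0.19. Loxl4 had a log2 fold change of 0.53 (interval -0.09 to 1.14), which was 0.26 without control replicate 1 and 0.87 without control replicate 3, and Loxl3 had one of 0.23 (interval -0.52 to 0.99). Loxl3 shares 535 exonic bases with the antisense gene Htra2, which had 2893 counts over all libraries against 699 for Loxl3.

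Levels between genes were compared as CPM per kilobase. In FFA2 fl/fl adipocytes Sparc led at 863 ± 37.2, followed by Thbs1 at 362 ± 40.6, Nid1 at 165 ± 3.12, Hspg2 at 112 ± 2.02 and Sparcl1 at 102 ± 5.71 CPM per kilobase (SD, n = 3). The laminin chains Lamb2, Lamc1, Lama4 and Lamb1 followed with levels between 57.2 and 33.1, ahead of Nid2 at 32.4 and Bgn at 24.4, and of these only Lamb1 and Nid2 were neighbours closer than their SD. Each of the 7 genes next below, from Loxl1 at 16.8 to Postn at 10.7, differed from its neighbour by less than the larger SD of the pair. Tnc stood at 4.31 ± 0.447 in controls and 14.0 ± 6.63 CPM per kilobase in knockouts, so that even there it was below the major laminins. Sparc and Thbs1, which led, and Sparcl1 were thus interstitial genes. The laminins, nidogens and perlecan named among these abundant genes had log2 fold changes of -0.15 to 0.20. The larger log2 fold changes belonged to genes of low or middle level.

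**Figure D4:**
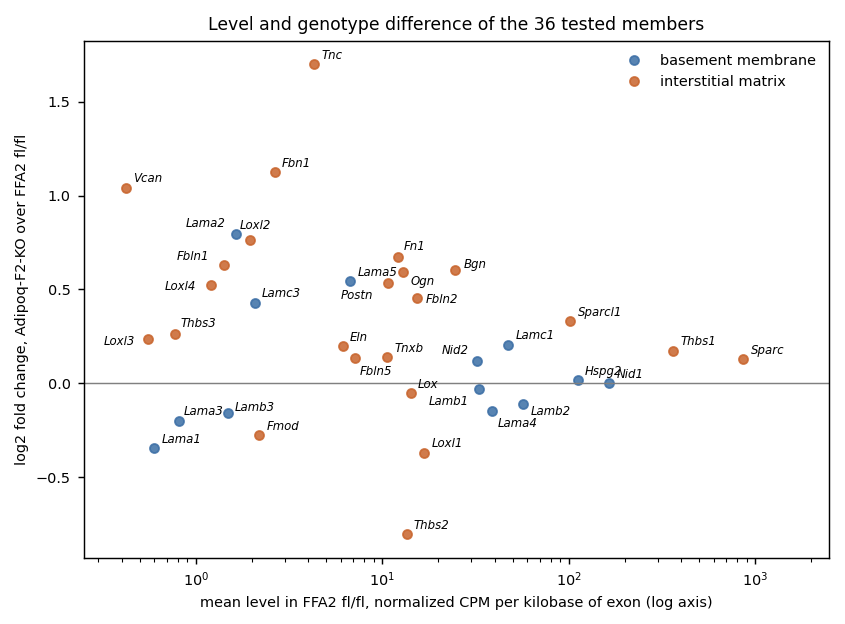
Log2 fold change (y axis, Adipoq-F2-KO over FFA2 fl/fl) against the mean FFA2 fl/fl level (x axis, CPM per kilobase, log scale) for the 36 tested genes, coloured by compartment. Tnc is the highest point at 1.70 and 4.31 CPM per kilobase, and Sparc is the rightmost at 863 CPM per kilobase and 0.13.

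Over all 23 tested interstitial genes, 10 had an unadjusted p under 0.05 upward and 2 downward, which is 52.2% against 17.9% of all tested genes (10.5% upward and 7.37% downward). The groups did not overlap for 6 of them upward and 2 downward, against 8.86% and 8.72% of all tested genes (17.6% in either direction), and for 1 basement membrane gene, Lama5. DESeq2 called 8 interstitial genes higher (Tnc, Bgn, Fbn1, Fn1, Fbln2, Vcan, Postn and Loxl2), 1 lower (Thbs2) and Lama5 among the basement membrane genes, against 4.85% of the same 17039 genes (3.74% higher and 1.11% lower). Without the filter on low counts edgeR called 13 members, 11 higher and 2 lower, against 4.92% of the 28515 genes then tested. Restricted to fibronectin, elastic fibre genes and proteoglycans, 11 genes, the median was 0.59, compared with 0.26 for the 7 matricellular genes and 0.23 for the 5 lysyl oxidases.

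Within the knockout group the libraries were uneven. Relative to the control mean, the median interstitial gene stood at 0.33, 0.36, 0.21 and 0.66 on the log2 scale in Adipoq-F2-KO replicates 1 to 4 and at -0.15, 0.0022 and 0.12 in the control replicates. The median basement membrane gene stood at 0.07, 0.02, -0.11 and 0.06 in the knockout replicates and at -0.10, 0.03 and 0.04 in the control replicates. Each knockout library was thus above each control library for the interstitial median but not for the basement membrane median. Replicate 4 was the highest knockout library for 11 of the 12 members with an unadjusted p under 0.05 upward, the library with the highest endothelial, mural and macrophage sums and the highest mitochondrial share, and replicate 3 was the lowest for 8 of the 12. Without replicate 4 the interstitial median was 0.31, with 9 genes upward and 2 downward at an unadjusted p under 0.05. The basement membrane median was then 0.03, with 2 upward and 1 downward. The share of all genes passing in that fit was not computed. The part of these markers and of the mitochondrial share in these values was not tested.

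The other matrix genes, taken from lists fixed alongside the members, had no call at an adjusted p under 0.05 in edgeR in either direction, and are given here by their counts at an unadjusted p under 0.05, upward and downward, and by DESeq2. Of all tested genes, 10.5% passed upward and 7.37% downward at an unadjusted p under 0.05, and 3.74% and 1.11% passed in DESeq2, so that single genes in lists of this size are near those shares. Of 19 collagen IV and other basement membrane genes, 5 and 1 passed, 31.6% together against 17.9% of all genes (median log2 fold change 0.19; DESeq2 1 and 1), the smallest p belonging to the calcium-binding glycoproteins Smoc2 (0.67) and Smoc1 (-0.39). Of 11 tested genes of laminin receptors and the dystrophin complex, 4 and 0 passed, or 36.4% (median 0.20, DESeq2 1 and 0). Those that passed were all integrin chains, led by Itgb1 (0.24) and Itga3 (0.55). Of 7 tested other small proteoglycans and hyalectans, 2 and 2 passed, or 57.1% (median 0.40; DESeq2 1 and 0), led by Aspn (1.10) and Prelp (-0.47). The list with collagen IV and the list of receptors with the dystrophin complex thus had medians between those of the basement membrane and interstitial members. Both lists held genes of either sign.

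Of 14 genes listed as other elastic fibre genes, 2 and 1 passed, or 21.4%, near the share of all genes (median -0.0041, DESeq2 0 and 1). They were led by Emilin2 (-0.88) and Ltbp4 (0.38). The list had 7 positive and 7 negative values, and Mfap1a (-0.20) and Mfap3 (-0.07) are in it by name, not as known elastic fibre parts. Of 12 tested other matricellular genes, 2 and 0 passed, or 16.7%, also near that share (median 0.36; DESeq2 1 and 0), led by Fstl1 (0.65) and Ccn3 (1.21). Of 20 tested genes of collagen modification and crosslinking, 4 and 2 passed, or 30% against 17.9% of all genes (median -0.03, DESeq2 0 and 1). They were led by P4ha2 (-0.50), a prolyl hydroxylase subunit, and Pcolce (0.38), an enhancer of procollagen processing. The lists of other elastic fibre genes and of collagen-modifying enzymes thus had medians near 0, below that of the member fibre genes. This difference depends on which genes were listed and was not tested.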

How the data were processed

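Poly-A RNA from 7 adipocyte preparations was sequenced in stranded, paired-end libraries. The authors used Trimmomatic for trimming, STAR for alignment and featureCounts for gene-level counting (versions and strand option not given in the sources used here). The counts were deposited unnormalized, with gene coordinates and lengths. The submitters' processing notes name GRCm38 and mm10, but 0 of the 38 members have the same start and end as in GENCODE M21 (GRCm38), so table coordinates are given without a build. Of 57010 identifiers, 52029 had a symbol. Low counts were 85.5% to 88.8% even, so both mates of a pair appear to have been counted. Of the members, 15 overlap exons of another gene, where reads may be misassigned. No column of per-sample values was left unused.

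Genes were filtered with filterByExpr, scaled by TMM (factors 0.968 to 1.02) and tested with edgeR 4.0.16 (quasi-likelihood, genotype only, all 7 libraries, adjusted p under 0.05) in R 4.3.3, and DESeq2 1.42.0, limma 3.58.1 (voom), other scalings, no filter, the replicate number as a block and leaving out each library were alternatives. The scripts were tested on simulated data. SE is the log2 fold change over the square root of F, and intervals are 95%. CPM per kilobase uses the table's gene length. The single-gene deviations of same-numbered libraries did not correlate (r 0.0315, -0.0242 and -0.0203), so the number was not taken as pairing. The labels number the samples of a genotype and name no day or batch. They do not state 1 mouse a sample, so p-values set the genotype difference against the spread between these samples.

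The members, lists and tests were chosen with earlier results of these data known. Members are given in every library where edgeR called them, where their unadjusted p was under 0.05, or where they had the highest CPM per kilobase of their role. Other genes named are Ffar2, the first 3 markers of a list, and in the other matrix lists the 2 with the smallest p. Outside this rule, markers at 0 in all libraries, genes that share exons with a member, and Lyz2, mt-Nd1, mt-Nd2, mt-Tp, Mfap1a and Mfap3 were named after their values were seen.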

Additional observations from a re-analysis of the deposited data

Results flagged for a closer look

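In the 4 Adipoq-F2-KO libraries, Bgn had 1 library far from the others, replicate 4 at 265 CPM, where the nearest was 217 CPM (gap over range 0.861, past Dixon's 95% critical value). Loxl4 had a low one, replicate 2 at 5.16 CPM, where the nearest was 7.94 CPM (0.918). These were 2 of the 36 members with any count in these libraries, and chance flags about 1 in 20 groups.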

How the results depend on the processing

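The count of all genes called depended most on the processing. It was 173 in edgeR, 171 and 176 with RLE and upper quartile scaling, 208 with limma voom, 1403 without the filter on low counts, 869 with DESeq2 and its own filter, and 1 to 178 when 1 library was left out. Of the members, 2 were called, 13 without the filter, 10 with DESeq2 and 0 to 1 with 1 library left out. At an unadjusted p under 0.05 the basement membrane count was 2 (1 without FFA2 fl/fl replicate 1, 4 without Adipoq-F2-KO replicate 3) and the interstitial count 12 (9 to 13 with 1 library left out), both counts by unadjusted p being added after the data were seen. The share of all genes at that threshold was computed only for the main fit. The interstitial median of 0.33 stayed between 0.29 and 0.46 with 1 library left out and was 0.59 without matricellular genes and lysyl oxidases, and the basement membrane median stayed between -0.022 and 0.029. Ffar2 was called lower in all these fits. The replicate block, for a number not taken as pairing, gave 224 calls over all genes, with Tnc and Bgn again the members called. Adipoq-F2-KO replicate 4 was alone in its block, so it added nothing to the log2 fold changes of that fit. The sign changed for members near 0. Leaving out 1 library gave log2 fold changes of -0.31 to 0.048 for Lama3, -0.094 to 0.022 for Lamb1, -0.022 to 0.041 for Nid1, -0.062 to 0.060 for Hspg2, -0.036 to 0.39 for Eln, -0.49 to 0.20 for Fmod, -0.14 to 0.034 for Lox and -0.040 to 0.71 for Loxl3. Nid1 was -0.00057 without the filter and -0.0015 with voom, and Lox was 0.0030 with the replicate block. The cause was not tested. With 3 and 4 libraries, the intervals of the abundant basement membrane set left room for log2 differences from -0.36 to 0.42. These bounds are not a limit of detection, since a larger difference could also miss the adjusted threshold.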
